A study of Chlorocebus aethiops with 24 samples.

Results

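Splicing factors and spliceosome proteins were followed in the left hippocampus of male vervet monkeys through 86 probe set rows, which stand for 78 gene symbols out of 11512 rows measured. A row entered when its platform annotation gave a single symbol that began with HNRNP, SRSF, SFRS, SF3, PRPF, SNRP, U2AF, RBM plus a digit, LSM plus a digit, TRA2 or CELF. The choice among the rows of the table thus used symbols alone, but the families themselves were chosen with earlier results of these data known. The rows comprised 16 of the hnRNP family, 8 of the SR family, 36 of core factors (all SF3, PRPF, SNRP, U2AF and LSM symbols) and 26 of the RBM and CELF families. A total of 8 symbols (HNRNPH1, HNRNPM, PRPF38B, RBM28, RBM47, SF3A1, SRSF5 and SRSF6) had 2 rows each, called row 1 and row 2 in order of falling mean expression. Another 2 rows whose annotation names several genes, among them a family member, were not used.

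Animals were captive-bred vervets of the St. Kitts population, killed at 5 months or at 2 years after birth. FASD animals were born to alcohol-preferring dams that voluntarily drank ethanol late in pregnancy, and control animals to dams that were offered isocaloric sucrose over the same period, in which the same female could serve in either arm in different breeding cycles. There were 6 control and 5 FASD animals at each age, with 1 array per animal, and animals are numbered as in their labels. All groups thus shared the vervet background, male sex and hybridization to an array designed for the rhesus macaque, a related species, and the FASD condition here is a prenatal exposure, not a diagnosis. The source name of control animal 6 at 5 months states 2 years while its other labels state 5 months, and it was kept at 5 months. The title of 1 FASD array at 5 months that the authors discarded carries the number 2, as does a retained array, while its source name gives another number. FASD animal 2 at 5 months below always means the retained array.

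Splicing removes introns from pre-messenger RNA. Small nuclear ribonucleoproteins (snRNPs), built on rings of Sm or LSM proteins, assemble with the SF3, U2AF and PRPF proteins into the spliceosome, which recognises the splice sites and carries out the cutting and joining. hnRNP proteins coat the transcript and often repress exons, SR proteins bind exonic enhancers and often promote exon use, and members of the RBM and CELF families adjust exon choice or the fate of the message in particular tissues. Neurons are known for unusually extensive alternative splicing, and several CELF proteins are enriched in brain. The rows measure the amount of the messenger RNA of each factor, not splicing itself. With whole tissue, fewer cells of a type and less RNA per cell cannot be told apart.

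The mean log2 expression of splicing factor rows had a median of 8.89, against 8.01 over all rows, and ranged from 3.93 to 12.9. The SD between animals within a group had a median of 0.161 on the log2 scale, against 0.158 over all rows, and it ran from 0.0723 for SRSF9 to 0.551 for row 2 of RBM47. Several brain tissue markers were high on every array, with MBP of myelin between 11.43 and 12.93, NRGN of neurons between 10.47 and 11.30 and the brighter of the GFAP rows, of astrocytes, between 11.60 and 12.76. The dimmer GFAP row lay between 7.14 and 7.86. The neuronal markers SNAP25, CAMK2A and SLC17A7 had no row annotated with their symbol alone. FASD animal 2 at 5 months stood apart from the other animals in some glial and connective tissue markers, since its mean over the measured oligodendrocyte markers (0.50), microglia markers (0.37) and fibroblast and meninges markers (0.93), each row centred on its overall mean, was the highest of all arrays. Its astrocyte mean (0.12) and oligodendrocyte precursor mean (0.32) were not the highest. Its array mean was the lowest, at 7.90.

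With alcohol as an independent variable, 6 of the 11 splicing factor rows called lower in FASD animals belonged to the hnRNP family. At an unadjusted p under 0.05 by limma, averaged over both ages, 6 of 16 hnRNP rows were lower and 1 was higher, against a background of 6.01% of all rows lower and 2.43% higher. The median hnRNP difference was -0.133 on the log2 scale, against -0.0069 over all rows, and 13 of 16 rows lay below 0, against 53.2% of all rows. Over all splicing factor rows, 11 of 86 were lower and 1 was higher, with a median difference of -0.036 and 55 rows below 0. No row of any kind passed after Benjamini-Hochberg adjustment over the whole table, where the lowest adjusted p was 0.579 by limma and 0.162 by exact permutation. Every call below is therefore a call at an unadjusted p.

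The split of the background depended on the scaling. When each array was centred on its median, the called rows of the whole table were no longer mostly lower (48.5% lower, against 71.2% as deposited), and after quantile normalization the share was 48.3%. Under both scalings 8 splicing factor rows were lower and 2 were higher, and 5 of those lower were hnRNP rows, with backgrounds of 3.97% and 4.08% for lower and 4.21% and 4.37% for higher. Omitting FASD animal 2 at 5 months left 9 rows lower and none higher by limma, 4 of the lower ones hnRNP rows, against 4.74% lower and 2.48% higher in the whole table. Omitting control animal 6 at 5 months left 11 lower and 2 higher, against 6.18% and 2.98%.

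**Figure D1:**
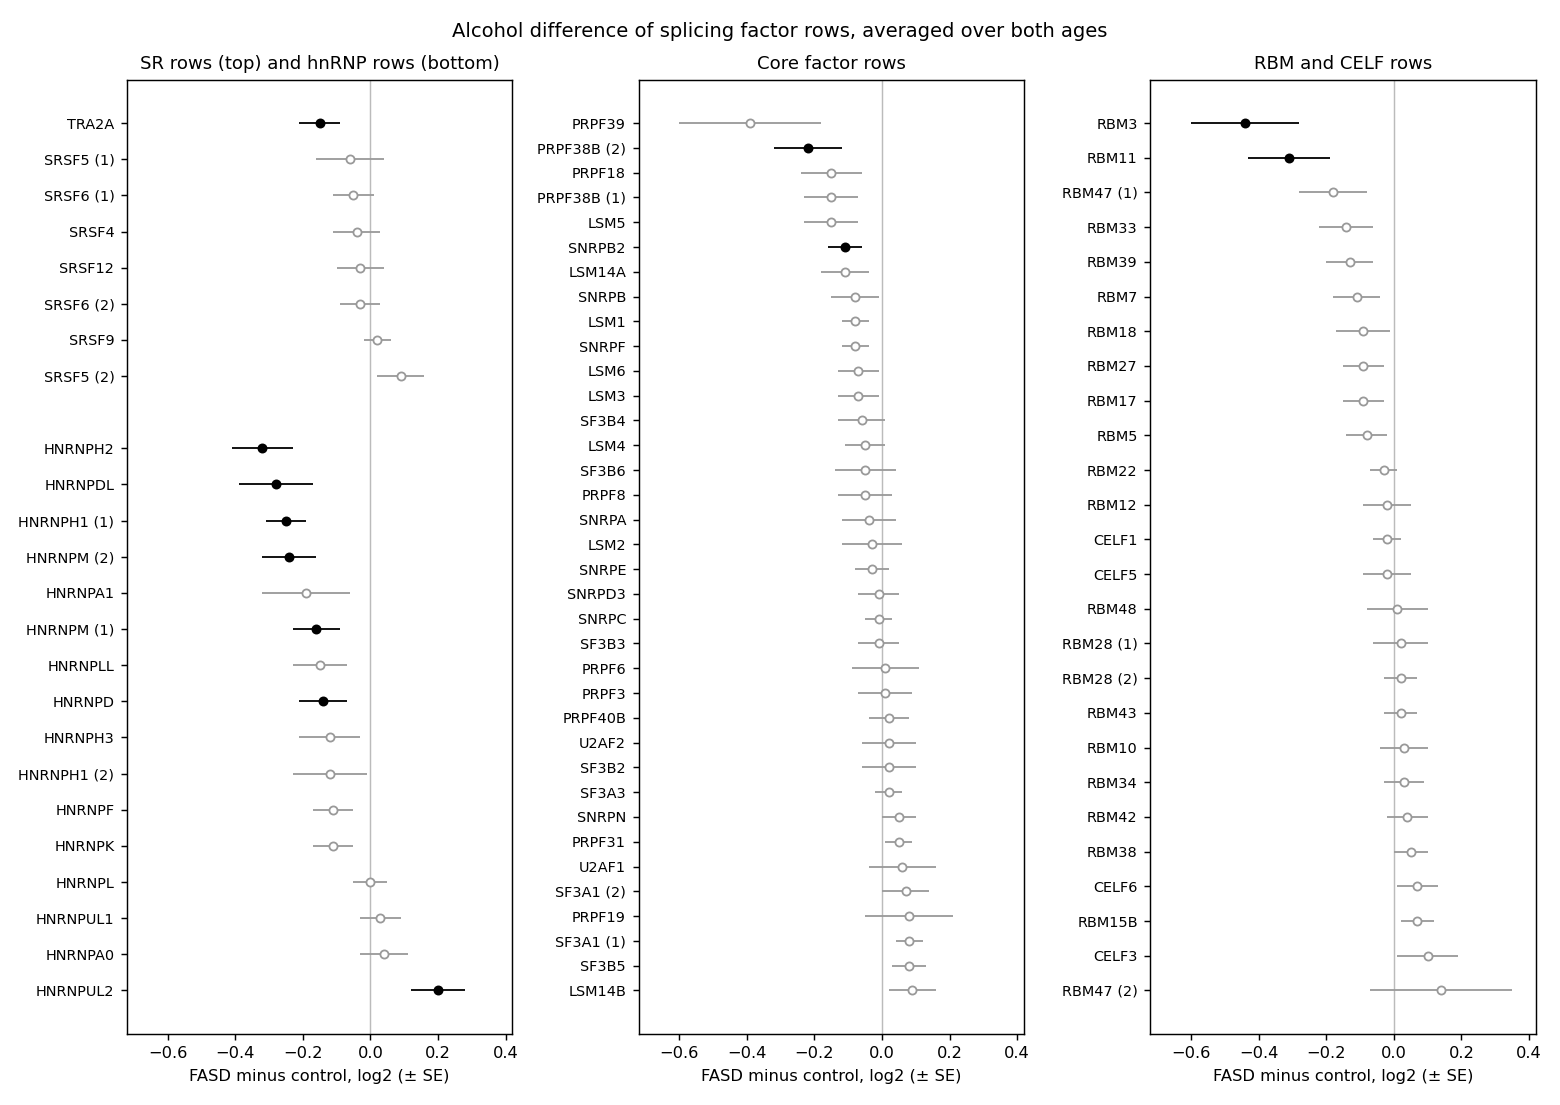
Log2 difference (FASD minus control, averaged over both ages, x axis) of all 86 splicing factor rows, by family; bars are ± 1 SE and filled black points passed an unadjusted p under 0.05 by limma. Numbers in parentheses give the row of a symbol with several rows. Of the 16 hnRNP rows 13 lie left of 0, while the core factor rows and the RBM and CELF rows have medians of -0.026 and -0.019.

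HNRNPH1 and HNRNPH2, closely related proteins that bind runs of guanine in RNA, had the lowest p of the family. For row 1 of HNRNPH1 (probe set MmuSTS.2519.1.S1_at), log2 expression at 5 months was 11.06, 11.24 and 11.38 in controls (lowest, median and highest) and 10.74, 10.83, 10.96, 11.02 and 11.09 in FASD animals. At 2 years the control values were 11.03, 11.21 and 11.46 and the FASD values 10.81, 10.97, 10.98, 11.11 and 11.22. Most FASD animals lay under every control of their age, 4 of 5 at 5 months and 3 of 5 at 2 years, and the ranges of the groups overlapped through the remaining animals. The difference was -0.25 (SE 0.06, unadjusted p = 0.000548, adjusted p = 0.579), a fold of 0.840, and permuting animals within each age gave an exact two-sided p of 0.000768. Limma also called it within each age, at -0.29 at 5 months (exact permutation p = 0.0130) and -0.21 at 2 years, where the exact permutation p of 0.0584 did not pass.

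HNRNPH2 read 9.65, 9.94 and 10.21 in controls at 5 months, against 9.47, 9.51, 9.73, 9.79 and 9.85 in FASD animals. At 2 years it read 9.53, 9.92 and 10.27 in controls, against 9.32, 9.54, 9.57, 9.65 and 9.83 in FASD animals. The groups overlapped at both ages, but the highest FASD animal stayed under the control median each time. The difference was -0.32 (SE 0.09, unadjusted p = 0.00118, adjusted p = 0.579; exact permutation p = 0.00229), a fold of 0.803, and both ages passed on their own, at -0.26 (exact permutation p = 0.0455) and -0.37 (exact permutation p = 0.0303). Because HNRNPH1 and HNRNPH2 are similar in sequence, cross-hybridization between their probe sets on this array was not tested, and both rows may read partly the same RNA.

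The other rows of the hnRNP H and F group were less clear. Row 2 of HNRNPH1, which is dimmer (mean 8.15, against 11.11 for row 1), differed by -0.12 (SE 0.11, unadjusted p = 0.274, adjusted p = 0.753). This difference stood at -0.23 at 5 months and -0.02 at 2 years, where the means were 8.11 in controls and 8.09 in FASD animals, and it was -0.07 without FASD animal 2 or control animal 4 at 2 years. Only the brighter probe set of this gene passed. HNRNPH3, the third H protein, read 9.82, 10.02 and 10.21 in controls and 9.71, 9.82, 9.86, 9.91 and 10.03 in FASD animals at 5 months. The 2-year values were 9.65, 9.84 and 10.21 in controls, against 9.24, 9.67, 9.99, 10.02 and 10.03 in FASD animals, whose median lay above that of the controls. Its difference was -0.12 over both ages (SE 0.09, unadjusted p = 0.205, adjusted p = 0.719), and -0.05 without FASD animal 2 at 2 years, the animal at 9.24. All 5 rows of HNRNPH1, HNRNPH2, HNRNPH3 and HNRNPF lay below 0, between -0.32 and -0.11, and 2 of them passed.

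**Figure D2:**
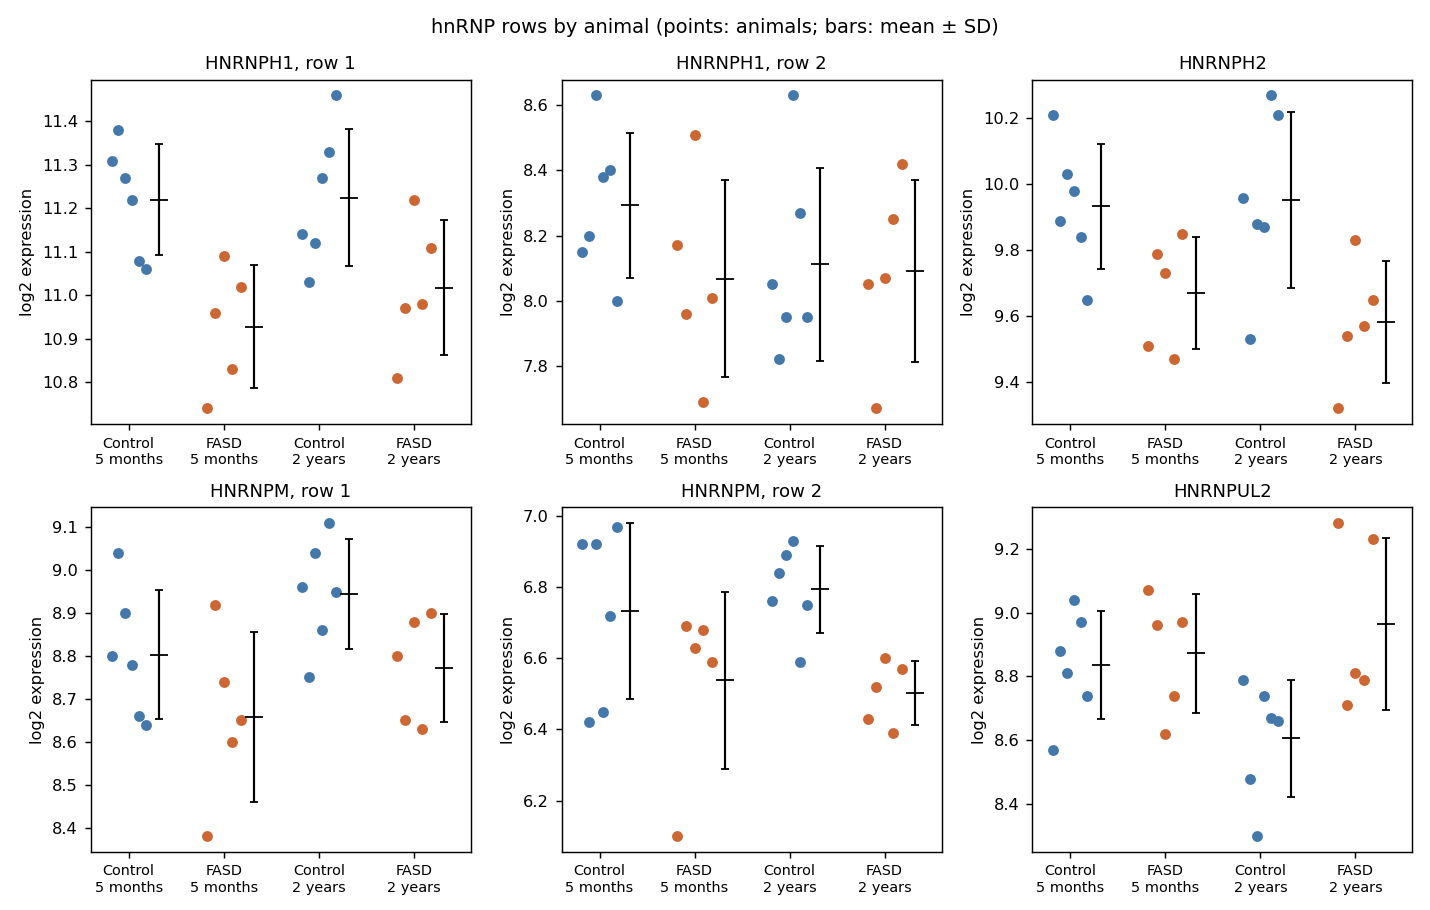
Log2 expression (y axis) of 6 hnRNP rows in every animal of the 4 groups (x axis; blue control, orange FASD), with the mean ± SD as bars beside the points. Row 1 of HNRNPH1 shows 4 of 5 FASD animals under all controls at 5 months and 3 of 5 at 2 years, and HNRNPUL2 runs the other way at 2 years, with 3 of 5 FASD animals above all controls.

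HNRNPM, a splicing regulator with a preference for guanine and uracil, passed in both of its probe sets. Row 2 read 6.42, 6.82 and 6.97 in controls at 5 months, against 6.10, 6.59, 6.63, 6.68 and 6.69 in FASD animals. At 2 years it read 6.59, 6.80 and 6.93 in controls, against 6.39, 6.43, 6.52, 6.57 and 6.60. The separation was widest at 2 years, where 4 of 5 FASD animals lay under all controls and the last overlapped the lowest control only, while at 5 months 1 of 5 lay under all controls. The difference of row 2 was -0.24 (SE 0.08, unadjusted p = 0.00519, adjusted p = 0.579; exact permutation p = 0.00661). Row 1, which is brighter (mean 8.80, against 6.65), differed by -0.16 (SE 0.07, unadjusted p = 0.0245, adjusted p = 0.579), and lost its call without FASD animal 2 at 5 months or without FASD animal 4 at 2 years.

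HNRNPD and its paralog HNRNPDL bind AU-rich elements, and HNRNPD is best known for its part in messenger RNA decay. HNRNPDL read 9.78, 10.03 and 10.33 in controls at 5 months, against 9.48, 9.52, 9.85, 9.99 and 10.03 in FASD animals, and 9.58, 10.13 and 10.72 in controls at 2 years, against 9.73, 9.79, 9.87, 9.95 and 9.95. All FASD animals lay at or under the control median, but the ranges overlapped, and 1 control at 2 years was the lowest animal of that age. The difference was -0.28 (SE 0.11, unadjusted p = 0.0141, adjusted p = 0.579). HNRNPD differed by -0.14 (SE 0.07, unadjusted p = 0.0422, adjusted p = 0.590), and this call was lost in 14 of 22 fits that omitted 1 animal and under both scalings.

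HNRNPUL2, a relative of the scaffold protein HNRNPU, was the only splicing factor row called higher in FASD animals. At 2 years it read 8.30, 8.67 and 8.79 in controls, against 8.71, 8.79, 8.81, 9.23 and 9.28 in FASD animals. At 5 months it read 8.57, 8.85 and 9.04 in controls, against 8.62, 8.74, 8.96, 8.97 and 9.07. The groups were intermixed at 5 months and nearly apart at 2 years, where the difference was 0.36 (unadjusted p = 0.00589, adjusted p = 0.793) against 0.03 at 5 months. Over both ages it was 0.20 (SE 0.08, unadjusted p = 0.0275, adjusted p = 0.580; exact permutation p = 0.0477), a fold of 1.15, and the difference between the ages did not pass (interaction 0.32, SE 0.17, unadjusted p = 0.0644, adjusted p = 1.0). The call over both ages was lost in 5 of the 22 fits that omitted 1 animal, among them the one without FASD animal 2 at 5 months.

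Averaged within each animal over the 16 hnRNP rows, each centred on its overall mean, FASD animals at 5 months read -0.18, -0.15, -0.04, -0.02 and -0.01, and controls ran from -0.01 to 0.10. At 2 years FASD animals ran from -0.13 to 0.03 and controls from -0.15 to 0.23. The 5-month groups met only at their edges, while at 2 years control animal 2 lay under every FASD animal and the other 5 controls lay at or above the highest FASD value, to the digits given. FASD animal 2 at 5 months was the lowest animal of that age in the hnRNP mean, the SR mean (-0.17) and the RBM and CELF mean (-0.20). The same animal had the highest oligodendrocyte, microglia and fibroblast and meninges marker means of all arrays. The part of these markers in its family means was not tested. Without this animal the median hnRNP difference was -0.116.

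**Figure D3:**
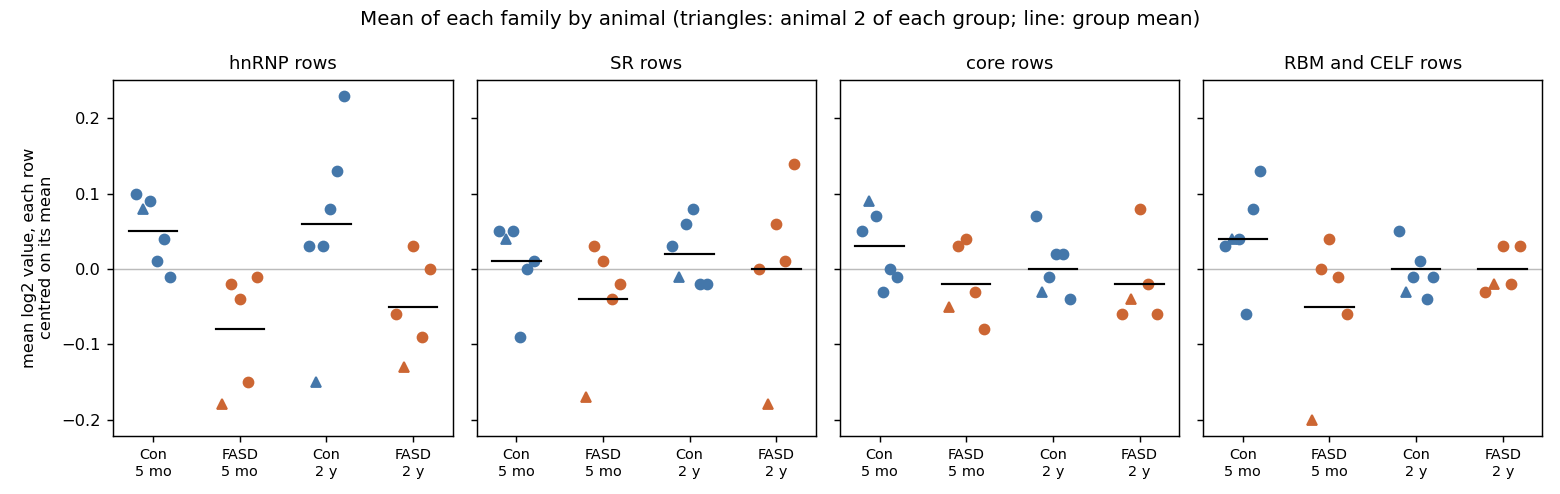
Mean log2 value of each family per animal (y axis, each row first centred on its mean over all arrays) in the 4 groups (x axis); triangles are animal 2 of each group and lines are group means. The hnRNP group means are 0.05 and -0.08 at 5 months and 0.06 and -0.05 at 2 years (control, then FASD), while in the SR, core and RBM and CELF panels the group means stay between -0.05 and 0.04.

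In the SR family 1 of 8 rows (12.5%) was lower and none was higher by limma, against 6.01% and 2.43% of all rows. The row was TRA2A, an SR-like protein that binds exonic enhancers rich in GAA. It read 9.31, 9.42 and 9.53 in controls at 5 months, against 9.19, 9.25, 9.30, 9.33 and 9.33 in FASD animals, and 9.09, 9.43 and 9.62 in controls at 2 years, against 9.13, 9.14, 9.19, 9.27 and 9.39. At 5 months 3 of 5 FASD animals lay under all controls, while at 2 years the control range enclosed the FASD range. The difference was -0.15 (SE 0.06, unadjusted p = 0.0232, adjusted p = 0.579; exact permutation p = 0.0209).

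None of the 7 rows of the SRSF proteins passed for alcohol over both ages, and the median over all SR rows was -0.035 (0.011 without the 3 arrays of lowest weight). SRSF5, a classical SR protein, had a bright row 1 (mean 10.61) at -0.06 (SE 0.10, unadjusted p = 0.541, adjusted p = 0.873). Its row 2, near the bottom of the scale (mean 4.37), stood at 0.09 (SE 0.07, unadjusted p = 0.216, adjusted p = 0.727). The rows thus differed in sign, and neither passed over both ages. For row 2 the FASD animals at 5 months read 4.30, 4.40, 4.42, 4.48 and 4.53, with 4 of 5 above all controls (4.19, 4.26 and 4.34), while at 2 years the FASD animals (4.23 to 4.79) and controls (4.15 to 4.63) were intermixed. SRSF4 differed by -0.04 (SE 0.07, unadjusted p = 0.545, adjusted p = 0.877).

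Core factors, a group set by symbol, showed 2 of 36 rows lower and none higher, which is a share (5.56%) close to the background for lower. The group also holds LSM1, LSM14A and LSM14B, which are not among the ring proteins listed below. PRPF38B, a relative of the yeast splicing factor Prp38, was called in its dimmer row 2. That row read 7.26, 7.58 and 7.92 in controls at 5 months, against 6.99, 7.39, 7.43, 7.54 and 7.67 in FASD animals, and 7.29, 7.69 and 7.95 in controls at 2 years, against 7.05, 7.33, 7.43, 7.53 and 7.61. The groups overlapped, with 1 FASD animal under all controls at each age. The difference was -0.22 (SE 0.10, unadjusted p = 0.0395, adjusted p = 0.587; exact permutation p = 0.0505), and that of row 1 was -0.15 (SE 0.08, unadjusted p = 0.0816, adjusted p = 0.620). The call of row 2 was lost in 10 of 22 fits that omitted 1 animal and under both scalings.

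SNRPB2, a protein of the U2 snRNP, read 9.20, 9.33 and 9.53 in controls at 5 months, against 9.15, 9.22, 9.22, 9.24 and 9.25 in FASD animals. At 2 years it read 9.07, 9.30 and 9.45 in controls, against 9.11, 9.12, 9.13, 9.32 and 9.32. The FASD animals at 5 months were tightly grouped at the foot of the control range. The difference was -0.11 (SE 0.05, unadjusted p = 0.0428, adjusted p = 0.590; exact permutation p = 0.0306), and this call was lost in 12 of 22 fits that omitted 1 animal and under both scalings.

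By role, the core factors divided as follows. Of 10 rows of the Sm and LSM ring proteins (SNRPB, SNRPD3, SNRPE, SNRPF, SNRPN and LSM2 to LSM6), 9 lay below 0 with a median of -0.058, and none passed. Of 10 rows of the SF3 and U2AF proteins, which recognise the branch point and the 3′ splice site, 3 lay below 0 with a median of 0.020, and none passed. Of 10 PRPF rows 1 passed, the one of PRPF38B above. The largest core difference, -0.39 for PRPF39, a protein of the U1 snRNP, had an SE of 0.21 and did not pass (unadjusted p = 0.0723, adjusted p = 0.620); it is named here because of its size, after its values were seen.

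In the RBM and CELF families 2 of 26 rows were lower and none was higher, with a median of -0.019. The share lower (7.69%) was near the background of 6.01%, and the background for higher was 2.43%. RBM3, an RNA-binding protein induced by cold, had the largest difference of all 86 rows. It read 7.21, 7.67 and 7.99 in controls at 5 months, against 7.01, 7.09, 7.25, 7.42 and 7.74 in FASD animals, and 6.69, 7.87 and 8.32 in controls at 2 years, against 6.92, 7.06, 7.16, 7.24 and 7.50. Controls at 2 years were widely spread (SD 0.64, against 0.22 in FASD animals), and 1 of them was the lowest animal of the series for this gene. The difference was -0.44 (SE 0.16, unadjusted p = 0.0109, adjusted p = 0.579; exact permutation p = 0.0197), a fold of 0.739.

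RBM11, a splicing regulator found mainly in brain and testis, read 7.74, 8.29 and 8.69 in controls at 5 months, against 7.39, 7.56, 7.83, 7.85 and 8.38 in FASD animals. At 2 years it read 7.68, 7.98 and 8.36 in controls, against 7.55, 7.65, 7.77, 7.94 and 8.12. At each age 2 of 5 FASD animals lay under all controls and the rest were intermixed. The difference was -0.31 (SE 0.12, unadjusted p = 0.0204, adjusted p = 0.579; exact permutation p = 0.0316), a fold of 0.807. None of the 4 CELF rows passed for alcohol over both ages.

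The ages were then separated. At 5 months 4 of 86 rows were lower and none was higher by limma, against backgrounds of 3.36% and 1.47%, and at 2 years 9 were lower and 4 higher, against 3.35% and 2.69%. Among the 16 hnRNP rows 2 were lower and none was higher at 5 months, and 4 were lower and 1 was higher at 2 years. The hnRNP median was -0.136 at 5 months and -0.146 at 2 years, against -0.0275 and 0.0101 over the whole table. Over all 86 rows, in contrast, the median was -0.073 at 5 months and 0.005 at 2 years, with 69 rows and 42 rows below 0, while 61% and 46.1% of the whole table lay below 0 at these ages. HNRNPH1 row 1 and HNRNPH2 were called at both ages by limma. At 5 months the other calls were RBM11 (-0.39) and row 1 of RBM47 (-0.30), a cofactor of messenger RNA editing, and neither passed the exact permutation test (p = 0.110 and p = 0.0584). By exact permutation but not by limma, RBM22 (-0.09, p = 0.00433) and TRA2A (-0.12, p = 0.0281) were lower at this age. Permutation also put SNRPB2 (-0.13, p = 0.0411) and HNRNPK (-0.13, p = 0.0433) lower and row 2 of SRSF5 (0.17, p = 0.00649) higher. For RBM22 all 5 FASD values lay under every control value. The permutation test passed 665 of all 11512 rows at 5 months. At 2 years the other lower calls were RBM3 (-0.54), row 2 of HNRNPM (-0.29), HNRNPD (-0.21), RBM7 (-0.21), LSM14A (-0.20), RBM27 (-0.19) and LSM1 (-0.13), and the higher calls were HNRNPUL2 (0.36), CELF3 (0.35), LSM14B (0.23) and RBM15B (0.16). By exact permutation within that age, only HNRNPM row 2, LSM14A, HNRNPUL2 and CELF3 of these passed, while RBM3 (p = 0.106), HNRNPD, RBM7, RBM27, LSM1, LSM14B and RBM15B (p = 0.110) had an exact permutation p between 0.0519 and 0.110. PRPF31 (0.12, exact permutation p = 0.0476) passed by permutation but not by limma, and 479 of all 11512 rows passed by permutation at 2 years.

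**Figure D4:**
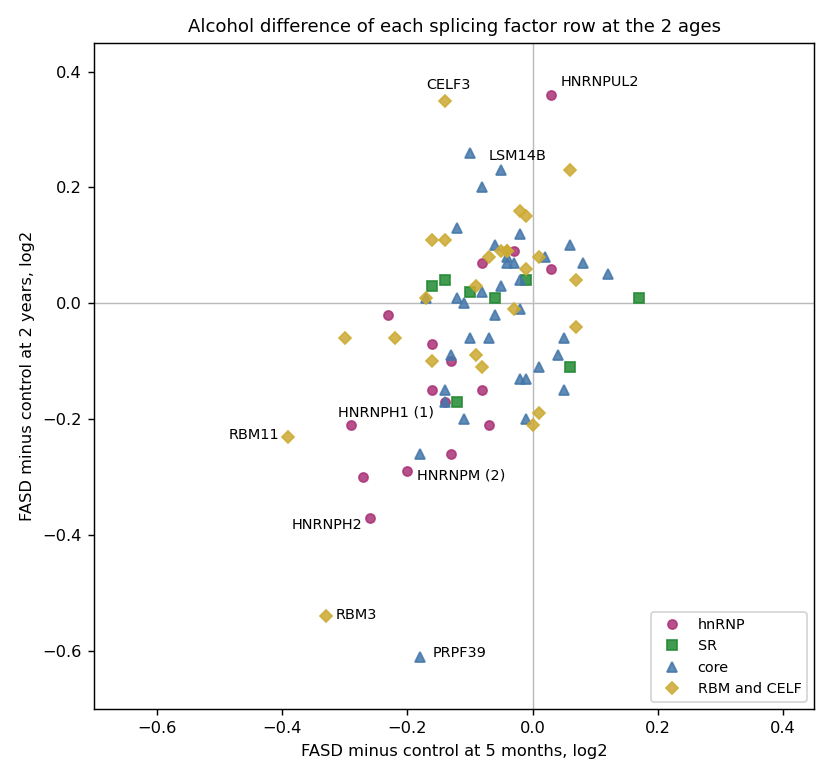
Log2 difference between FASD and control animals at 5 months (x axis) and at 2 years (y axis) for each of the 86 splicing factor rows, with the marker giving the family. Of the labelled hnRNP rows, HNRNPH1, HNRNPH2 and HNRNPM lie lower left, below 0 at both ages, while HNRNPUL2 is at 0.03 and 0.36. CELF3 is at -0.14 and 0.35, below 0 at 5 months and above 0 at 2 years.

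The change of the alcohol difference between the ages (the interaction) passed for 2 of 86 rows by limma, against a background of 3% of all rows in either direction. CELF3, a brain-enriched regulator of exon choice, read 9.42, 9.75 and 10.01 in controls and 9.36, 9.54, 9.56, 9.62 and 9.97 in FASD animals at 5 months. The 2-year values were 9.27, 9.56 and 9.84 in controls and 9.53, 9.89, 10.04, 10.05 and 10.08 in FASD animals. The groups were intermixed at 5 months, and 4 of 5 FASD animals lay above all controls at 2 years. The interaction was 0.49 (SE 0.17, unadjusted p = 0.00926, adjusted p = 1.0), from -0.14 at 5 months to 0.35 at 2 years.

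LSM14B, a relative of LSM14A that acts in translational control and not in the LSM ring of the spliceosome, was the other. It read 6.20, 6.35 and 6.48 in controls and 6.11, 6.27, 6.29, 6.31 and 6.53 in FASD animals at 5 months, and 6.19, 6.44 and 6.56 in controls and 6.36, 6.44, 6.70, 6.77 and 6.82 in FASD animals at 2 years. At 2 years 3 of 5 FASD animals lay above all controls. The interaction was 0.28 (SE 0.13, unadjusted p = 0.049, adjusted p = 1.0), and it kept its call in 8 of 22 fits that omitted 1 animal.

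With age as an independent variable, splicing factor rows moved little. By limma none of 86 was lower and 2 were higher at 2 years than at 5 months, averaged over both exposures, against backgrounds of 4.89% and 4.68%, and the median difference was 0.008. Adjusted calls numbered 16 in the whole table (0.139%), and none was a splicing factor. The lowest adjusted p among the 86 rows was 0.372, for LSM14B, whose difference was 0.18 (SE 0.07, unadjusted p = 0.0149; exact permutation p = 0.0339).

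CELF5, another brain-enriched CELF protein, differed by 0.18 with age (SE 0.07, unadjusted p = 0.0188, adjusted p = 0.392; exact permutation p = 0.0192). At 5 months it read 6.33, 6.46 and 6.48 in controls and 5.77, 6.32, 6.34, 6.44 and 6.47 in FASD animals, and at 2 years 6.30, 6.42 and 6.71 in controls and 6.45, 6.52, 6.61, 6.64 and 6.70 in FASD animals. Among FASD animals 4 of the 2-year values lay above every 5-month value, while the controls of both ages were intermixed, and the value of 5.77 was that of FASD animal 2. Without this animal and the other 2 arrays of lowest weight, the age difference of CELF5 was 0.10 and no longer passed.

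Within FASD animals CELF5 (0.32), LSM14B (0.31) and CELF3 (0.31) were higher at 2 years and no splicing factor row was lower by limma, against backgrounds of 4.71% and 2.28%. The exact permutation p of CELF3 was 0.0873. By exact permutation but not by limma, CELF6 (0.14, p = 0.0238) and PRPF31 (0.10, p = 0.0317) were higher and SF3B6 (-0.18, p = 0.00794) was lower. For SF3B6 all 5 values at 2 years lay under every value at 5 months. The permutation test passed 818 of all 11512 rows in FASD animals. Within controls U2AF1 (-0.27), the subunit that reads the AG of the 3′ splice site, was lower and none was higher by limma, against 3.77% and 1.78%, and its exact permutation p was 0.0649. HNRNPUL2 (-0.23, exact permutation p = 0.0498) was lower by permutation but not by limma, and 676 of all 11512 rows passed by permutation in controls. Since the age and alcohol comparisons within groups share animals, these calls are not separate evidence from the interactions above.

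**Figure D5:**
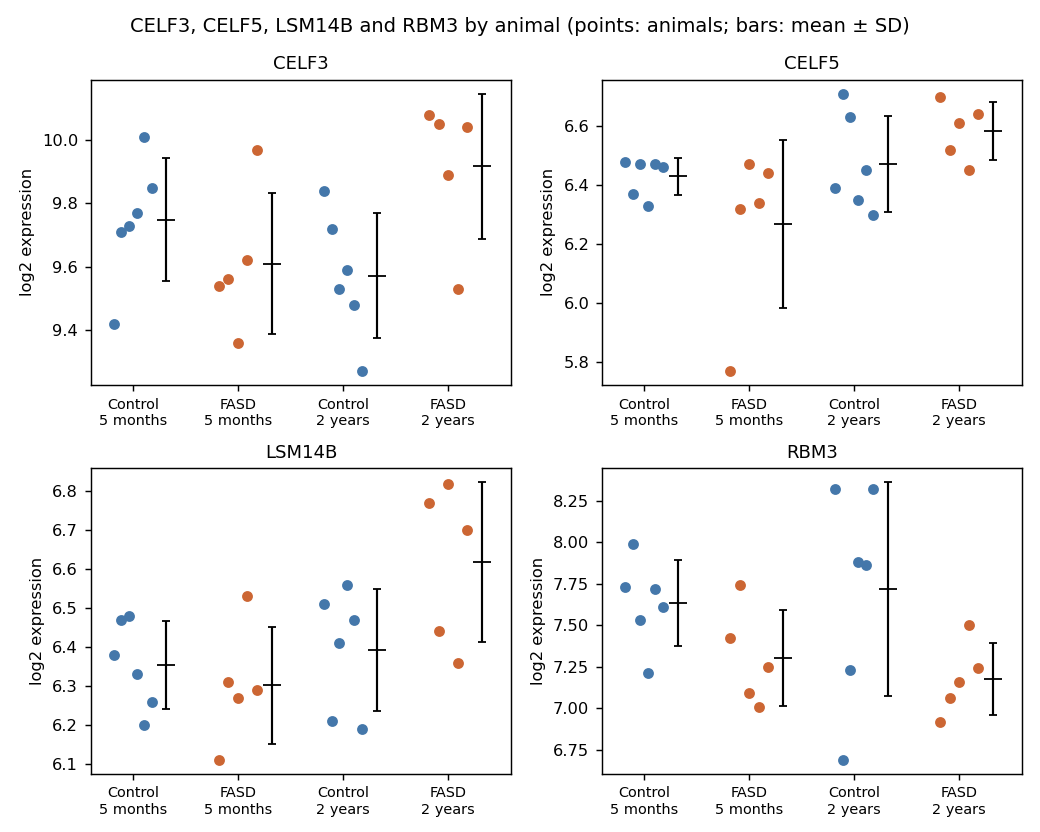
Log2 expression (y axis) of CELF3, CELF5, LSM14B and RBM3 in every animal of the 4 groups (x axis; blue control, orange FASD), with the mean ± SD as bars. CELF3 and LSM14B show FASD animals above all controls at 2 years (4 of 5 and 3 of 5), and the single low CELF5 point of the FASD group at 5 months is 5.77.

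The remaining rows of lowest p for age, which did not pass, were small in size. SNRPA, a protein of the U1 snRNP, read 7.75, 7.90 and 8.03 in controls and 7.61, 7.77, 7.84, 7.90 and 8.03 in FASD animals at 5 months, and 7.49, 7.73 and 8.09 and 7.42, 7.54, 7.64, 7.92 and 7.94 at 2 years. Its age difference was -0.16 (SE 0.08, unadjusted p = 0.0532, adjusted p = 0.531). Row 2 of RBM28, a nucleolar protein, was at 0.10 (SE 0.05, unadjusted p = 0.0593, adjusted p = 0.556) and its row 1 at 0.01. In the hnRNP family the rows of lowest p were row 1 of HNRNPM at 0.13 (unadjusted p = 0.0625, adjusted p = 0.559) and HNRNPH3 at -0.12 (unadjusted p = 0.175), and the family median was 0.025. SRSF4 stood at 0.08 (unadjusted p = 0.267, adjusted p = 0.776).

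Other proteins of the splicing pathway, from 6 lists of 166 symbols outside the families above, were measured in 100 rows of 93 symbols. For alcohol 7 of 100 were lower and none was higher by limma, close to the background of 6.01% for lower, with a median of -0.017. The calls included FUBP1 (-0.22, SE 0.07, unadjusted p = 0.00626, adjusted p = 0.579) and FUBP3 (-0.27), single-strand binding proteins of the hnRNP type, and SFPQ (-0.15), a paraspeckle protein. These were the 3 calls among 13 rows of the list of other hnRNP-type proteins, whose median was 0.017 with 5 rows below 0. They also included CLK4 (-0.23) and SRPK2 (-0.21), kinases that phosphorylate SR proteins, HTATSF1 (-0.12), a partner of the U2 snRNP, and NCBP1 (-0.13), which binds the cap. None of 13 rows of neuronal and tissue-restricted splicing regulators passed (median -0.007), nor did any of 20 rows of the U1, tri-snRNP and SMN complexes. For age YBX1 (-0.16) and SCAF11 (-0.18) were lower at 2 years, and CRNKL1 (0.21), WBP11 (0.12) and SAP18 (0.11) were higher. These were 2 and 3 of 100 rows by limma, under the backgrounds of 4.89% and 4.68%.

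Cell type markers differed between the groups at the same time. In FASD animals the mean over 5 oligodendrocyte marker rows was higher by 0.32 at 5 months (group ranges 0.04 to 0.50, against -0.23 to 0.02 in controls) and differed by -0.04 at 2 years. That over 5 oligodendrocyte precursor rows was higher by 0.28 and 0.18, while the mean over 7 neuronal rows differed by -0.08 and 0.02 and that over 7 astrocyte rows by -0.06 at both ages. The mean over 4 endothelial and mural rows was higher by 0.24 at 2 years (0.03 to 0.36, against -0.31 to 0.11 in controls) and differed by 0.02 at 5 months. Over both ages 2 oligodendrocyte rows (UGT8 at 0.30 and MAL at 0.24), 1 precursor row (GPR17 at 0.49), 1 microglia row (C1QA at 0.22) and 2 endothelial and mural rows (PECAM1 at 0.16 and MYH11 at 0.15) were called higher, and 1 neuronal row, GAD1 at -0.16, was called lower by limma. Of all rows, 2.43% were called higher and 6.01% lower. The called marker rows differed in size between the ages. At 5 months and 2 years UGT8 stood at 0.56 and 0.05, MAL at 0.42 and 0.06 and GAD1 at -0.34 and 0.02. PECAM1 stood at 0.04 and 0.27, MYH11 at 0.04 and 0.26, C1QA at 0.12 and 0.31 and GPR17 at 0.62 and 0.35. The part of these shifts in the hnRNP differences was not tested.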

How the data were processed

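RNA of the left hippocampus of 22 animals was measured on Affymetrix GeneChip Rhesus Macaque arrays. Deposited values were on a log2 scale and had been made by the authors with RMA (named in the submitters' processing notes, version not given in the sources used here): background correction, normalization of all arrays to 1 distribution and summary per probe set. Per the study's methods, rows were restricted to annotated probe sets detected in at least 6 arrays and then to the set of highest mean per gene. Nevertheless, 8 splicing factor symbols kept 2 rows under the platform annotation used here, which names 1 gene for 8730 of the 11512 rows, several for 88 and none for 2694. The columns of 2 of the 24 arrays, discarded by the authors, held no values and were not used. No array batch was given; per the methods all were loaded on the same day in random order. Microarray values carry no read depth, so the number of animals limits the precision.

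Groups were taken from the sample titles. Group means were estimated for every one of the 11512 rows by limma 3.58.1 (R 4.3.3, empirical Bayes), with contrasts for alcohol, age, their interaction and each stratum, and Benjamini-Hochberg adjustment over all rows. A call is an unadjusted p under 0.05; adjusted values are given beside it. Single rows were also tested by exact two-sided permutation of animals within age or exposure. Differences are log2, FASD minus control or 2 years minus 5 months. The steps were tested on simulated data: for alcohol, with 200 of 11512 rows changed by 0.25, 86.5% of the changed rows were called and 42.0% also passed after adjustment, and at 0.5, 98.5% and 92.5%. The simulated noise was independent between rows and arrays, without shifts shared by many rows of an array. These shares therefore do not cover data with such shifts. Alternatives were the unmoderated two-way analysis of variance of the methods, an intensity trend with robust variances, 2 scalings, array weights, a replicate block, 1 row per symbol, a filter on expression and omission of each array; omission of the 3 arrays of lowest weight was chosen after seeing the data.

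Members and lists were chosen with earlier results of these data known. Rows named in the text are, per family, up to 8 of lowest p for alcohol and 6 for age among those called (at least 2 for each), the 3 rows with the lowest interaction p, any further row of such a symbol, HNRNPH1, and up to 3 called rows for each other list. Further names are every row that was called by limma or passed the exact permutation test within 1 age or exposure. Plots come from matplotlib 3.10.9 (Python 3.11.15).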

Additional observations from a re-analysis of the deposited data

Results flagged for a closer look

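Among 112 groups of 5 or 6 values tested for an animal far from its group, 7 held one, where chance alone gives about 1 in 20. In the FASD group at 5 months, animal 2 was far below the others for row 2 of HNRNPM (6.10, next 6.59) and for CELF5 (5.77, next 6.32). In the FASD group at 2 years, animal 2 was low for SRSF4 (9.77, next 9.97), and in the controls at 2 years animal 2 was low for HNRNPD (9.06, next 9.47). In the controls at 5 months, animal 5 was high for row 2 of RBM28 (6.14, next 5.94), animal 1 was high for row 1 of PRPF38B (8.86, next 8.64) and animal 4 was low in the mean over the SR rows (-0.09, next 0.00).

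The alcohol difference of CELF3 changed between the ages by 0.49 (unadjusted p = 0.00926, adjusted p = 1.0 by limma) and that of LSM14B by 0.28 (unadjusted p = 0.049, adjusted p = 1.0 by limma).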

How the results depend on the processing

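For alcohol, 11 rows lower became 19 with array weights (background 9.2%) and 7 of 64 among rows above the median expression (6.18%). The single row higher became 2 under the two-way analysis of variance, centring, quantile normalization, array weights and without the 3 arrays of lowest weight. For age, none lower became 1 under centring, quantile normalization and the replicate block, 2 without the 3 arrays and 3 with array weights, and 2 higher became 4 under centring and without the 3 arrays and 0 among rows above the median expression. For the interaction, 2 calls became 1 under the two-way analysis of variance, centring, quantile normalization, the replicate block and the expression filter, and 5 with array weights and without the 3 arrays. Omitting 1 animal at a time, the counts ran from 8 to 19 for alcohol lower, 0 to 3 for alcohol higher, 0 to 2 for age lower, 2 to 5 for age higher and 1 to 7 for the interaction. The 19 (background 9.56%), the 3 and the 7 came without control animal 2 at 2 years, a fit that held all 12 rows called for alcohol. The hnRNP rows lower ran from 4, without FASD animal 2 at 5 months or FASD animal 4 at 2 years, to 9, without control animal 2 at 2 years; the hnRNP median stayed between -0.166 and -0.111 and that of all splicing factor rows between -0.050 and -0.016. Deviations of same-numbered animals of different groups correlated from -0.33 to 0.389 (30 pairs, mean 0.0706, 13 over 0.1), and animal 2 had the lowest hnRNP mean in 3 of 4 groups. Since not every pair was over 0.1, numbers were not taken to pair animals. This rule cannot exclude a modest effect shared by same-numbered animals. With the replicate block 12 rows were lower and 1 was higher for alcohol, and it ended the calls of SNRPB2 for alcohol and LSM14B for the interaction. HNRNPH1 row 1 (-0.28 to -0.22), HNRNPH2 (-0.36 to -0.28), row 2 of HNRNPM, HNRNPDL, TRA2A, RBM3 and RBM11 for alcohol, LSM14B for age and CELF3 for the interaction (0.42 to 0.58) stayed called in every fit that held their row. Over the named rows and all settings, 74 calls were lost and 35 gained. The sign turned 10 times, in alcohol differences that never passed: SRSF4 (-0.07 to 0.02 with 1 animal omitted, 0.05 without the 3 arrays), CELF5 (-0.05 to 0.04, 0.03 with array weights and 0.07 without the 3 arrays), row 1 of SRSF5 (-0.10 to 0.01, 0.04 without the 3 arrays) and row 1 of RBM28 (-0.03 to 0.04 with 1 animal omitted).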
